A study of Mus musculus with 17 samples.

Results

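Embryonic stem (ES) cells without *Nanog* were followed through their first 12 h in serum. The comparison set the 3 *Nanog* KO libraries at 12 h against the 3 at 0 h, 6 of the 17 libraries analysed here, over all genes with at least 1 CPM (counts scaled to the library's size) in at least 3 of the 17. This gave 15117 genes of the 15470 rows in the table. The *Nanog* KO cells are the line BT12, derived from the mouse ES line E14Tg2a, and E14Tg2a itself, with *Nanog* intact, was the control. At 0 h both lines grew in medium with LIF, serum replacement and the 2i inhibitors over inactivated mouse embryonic fibroblasts, and were then changed to serum for 12 or 24 h. The sources used here do not say what else the serum medium held, nor whether fibroblasts were still present in it. There were 3 libraries for each line and time, except that 2 of the control at 0 h (replicates 2 and 3) were used here. Each genotype is a single line, so a difference between genotypes cannot be told apart from a difference between these 2 lines. The labels do not say that replicates were separate cultures, and p-values are therefore only as wide as the scatter among these libraries, part of which could be technical.

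As background, the 2i inhibitors block MEK, the kinase that activates ERK, and GSK3, the kinase that marks beta-catenin for destruction, and together with the cytokine LIF, which signals through STAT3, they hold mouse ES cells in the naïve state of the early epiblast. When they are withdrawn, ES cells leave this state through a formative stage that resembles the epiblast after implantation, with *Pou3f1*, *Otx2*, *Fgf5* and the de novo DNA methyltransferases among its known marks. *Nanog* encodes a homeodomain transcription factor of the naïve network, and ES cells that lack it are known to be prone to turn into primitive endoderm, the epithelium that later lines the yolk sac.

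Depth was 19777267 to 23922556 reads in the *Nanog* KO libraries at 0 h and 12358301 to 20702654 at 12 h. *Nanog* stood at 31.7, 34.6 and 32.1 CPM in replicates 1 to 3 at 0 h and at 27.5, 25.9 and 22.5 CPM at 12 h, and replicates are given in this order throughout. All of these values lie far below the control mean of 412 CPM at 0 h and 395 CPM at 12 h. This remaining signal fell slightly, with a log2 change of -0.37 ± 0.081 (SE, adjusted p = 0.00104). The ES cell factors *Pou5f1* and *Sox2* were high in all 6 libraries, at 978 to 1245 CPM and 317 to 348 CPM.

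Many genes moved, in near equal numbers up and down. At an adjusted p under 0.05 (limma on log2(CPM + 1), all 17 libraries in 1 model, Benjamini-Hochberg over all tested genes), 3887 genes (25.7% of those tested) rose and 3952 (26.1%) fell. Many of these changes were small. The change was under 0.5 on the log2 scale for 4692 of the called genes, and the median SE was 0.094. Past 2-fold, that is a log2 change of 1, 275 genes (1.82%) rose and 306 (2.02%) fell. Adding 1 CPM before the logarithm shrinks the changes of genes with few reads, and without it more genes pass this size: 781 rose and 561 fell past 2-fold with edgeR on the recovered reads. The median change over all tested genes was -0.0055, so the list medians below are read against a value near 0. Counts of rises and falls in a list are read against the 25.7% and 26.1% of all tested genes. A lack of overlap between the libraries of 0 h and 12 h was not rare, and its share over all tested genes is not given. Of 76 cytosolic ribosomal protein genes, 56 lay lower without overlap, against 36 called lower. Where it is mentioned below it only describes the values. The 12 largest rises and 12 largest falls were chosen among genes without overlap.

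**Figure D1:**
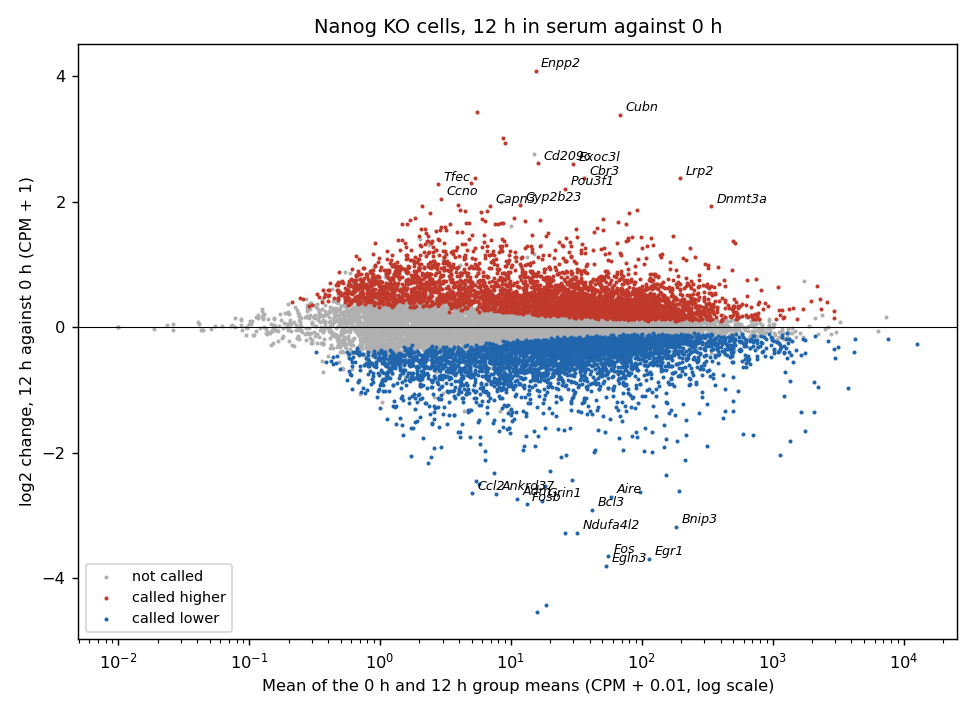
Change of each gene (log2, 12 h against 0 h, vertical axis) against the mean of both group means in CPM (horizontal axis, log scale), 1 point per tested gene, with genes called higher in red, called lower in blue and others in grey. Labels mark the 12 largest rises and 12 largest falls among annotated genes with at least 5 CPM and no overlap, with predicted genes and pseudogenes left out, from *Enpp2* at 4.08 to *Egln3* at -3.81.

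Markers of fibroblasts, the feeder cells of the 0 h cultures, were present in these libraries and fell with time. The 27 tested genes of that list summed to 1623 to 1832 CPM at 0 h and 919.9 to 1138 CPM at 12 h, and none was at 0 in all libraries of a group. Of these markers, 20 fell, against 26.1% of all tested genes, and 0 rose, with a median log2 change of -0.72. The matrix genes *Col1a1* and *Col3a1* changed by -0.74 ± 0.11 and -0.93 ± 0.12. In bulk RNA such as this, fewer cells of a type and less RNA per cell cannot be told apart.

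Genes induced by low oxygen were among the largest falls. Their known regulator is the transcription factor HIF, whose stability is set by the prolyl hydroxylases, among them *Egln3*. *Egln3* (ENSMUSG00000035105, chr12:54178981-54203860 of GRCm38) read 106, 101 and 94.0 CPM at 0 h and 6.59, 6.33 and 5.77 CPM at 12 h. The fall was 16.1-fold in mean CPM, a log2 change of -3.81 ± 0.12 (SE, adjusted p = 1.97e-14). The groups lie wide apart, but the largest falls were chosen for a lack of overlap. *Bnip3*, a mediator of mitophagy, went from 340.1, 323 and 321 CPM to 40.0, 34.4 and 31.9 CPM, a log2 change of -3.18 ± 0.086 (SE, adjusted p = 7.22e-15). *Adm*, the peptide hormone adrenomedullin, went from 20.8, 19.5 and 19.8 CPM to 2.00, 2.77 and 1.79 CPM (-2.73 ± 0.17, adjusted p = 3.56e-10). For both genes the lowest 0 h library stands several times above the highest 12 h library. *Ankrd37* fell from 15.5, 14.2 and 12.1 CPM to 1.32, 1.15 and 1.63 CPM (-2.66 ± 0.14, adjusted p = 2.81e-11), and *Vegfa*, the angiogenic growth factor, from a mean of 69.6 CPM to 16.8 CPM (-1.99 ± 0.087). All 16 of the listed hypoxia genes fell, 12 of them past 2-fold, with a median of -1.94. The smallest change in the list was -0.30. *Ndufa4l2*, a gene of the same kind that the list did not hold, went from 62.0, 59.1 and 56.5 CPM to 5.86, 4.82 and 4.96 CPM (-3.28 ± 0.16, adjusted p = 1.85e-11).

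RNA of glycolysis genes fell from end to end of the pathway. The 21 listed genes together summed to 26679 to 27328 CPM at 0 h and 11670.0 to 11887 CPM at 12 h. Of these, 20 fell, 13 of them past 2-fold, and the median log2 change was -1.35. At the entry, the glucose transporter *Slc2a1* read 1833, 1832 and 1840.4 CPM at 0 h and 431, 441 and 468 CPM at 12 h (-2.04 ± 0.077, adjusted p = 3.65e-13), and hexokinase *Hk2* changed by -1.34 ± 0.062. In the middle, the triose phosphate isomerase *Tpi1* went from a mean of 1093 CPM to 329 CPM (-1.73 ± 0.079) and *Pgk1* from 2378 CPM to 931 CPM (-1.35 ± 0.061). At the exit, lactate dehydrogenase A (*Ldha*) went from 2174, 2132 and 2056 CPM to 594, 599 and 607 CPM (-1.82 ± 0.050, adjusted p = 7.22e-15). The lactate exporter *Slc16a3* went from 332, 331 and 325 CPM to 48.1, 52.6 and 59.2 CPM (-2.61 ± 0.11, adjusted p = 2.71e-12), the largest fall of the list. *Pdk1*, which inhibits pyruvate dehydrogenase and so keeps pyruvate out of the mitochondrion, changed by -0.52 ± 0.048. The exception in the list was *Pfkm*, the muscle form of phosphofructokinase, which rose from 82.9, 86.8 and 78.0 CPM to 144, 148 and 155 CPM (0.85 ± 0.090, adjusted p = 4.28e-07) while the other forms *Pfkl* and *Pfkp* changed by -1.45 and -1.72.

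The HIF core motif is ACGTG. Searched on both strands in RefSeq promoter windows of GRCm38.p6 (from 250 bases before a gene's start to 50 after), it was in 12 of 18 windows of the hypoxia genes (66.7%) and 16 of 33 windows of the glycolysis genes (48.5%). Of all 32851 windows, 19.6% hold it. Promoters were in the table for 13 of 16 and 20 of 21 genes. A match is a description of the letters and not a binding site. The 250 bases before the start of 3 genes that fell with this group are shown for their matches, which are in capitals, 5′ to 3′ on the strand of the gene. A run CACGTG holds the motif on both strands and counts as a match on each. The windows are chr7:46845554-46845803 (plus strand) for *Ldha*, chr7:138909507-138909756 (minus strand) for *Bnip3* and chr8:45999851-46000100 (minus strand) for *Ankrd37*.
Ldha: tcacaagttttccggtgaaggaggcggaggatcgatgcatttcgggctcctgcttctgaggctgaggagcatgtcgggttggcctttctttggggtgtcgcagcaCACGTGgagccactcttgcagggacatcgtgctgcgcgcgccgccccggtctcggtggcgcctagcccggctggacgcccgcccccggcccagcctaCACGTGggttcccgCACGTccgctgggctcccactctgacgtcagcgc
Bnip3: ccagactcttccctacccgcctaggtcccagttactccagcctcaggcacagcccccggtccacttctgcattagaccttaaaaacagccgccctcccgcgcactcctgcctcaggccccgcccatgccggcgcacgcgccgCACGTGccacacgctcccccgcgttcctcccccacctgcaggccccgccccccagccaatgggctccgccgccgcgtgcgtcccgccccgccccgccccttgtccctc
Ankrd37: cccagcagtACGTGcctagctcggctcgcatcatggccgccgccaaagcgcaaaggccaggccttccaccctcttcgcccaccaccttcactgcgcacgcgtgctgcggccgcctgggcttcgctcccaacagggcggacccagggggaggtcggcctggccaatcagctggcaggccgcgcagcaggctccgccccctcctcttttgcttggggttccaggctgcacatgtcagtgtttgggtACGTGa
*Ldha* holds 5 matches in this stretch and *Bnip3* and *Ankrd37* hold 2 each. The other *Ldha* window searched, chr7:46846832-46847131, holds 0.

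RNA of most cholesterol synthesis genes fell. The genes of this pathway are known to be switched on together by SREBP2 when sterols are scarce and off when lipoproteins supply them. Of 24 listed genes 22 fell and 0 rose, 11 of the falls past 2-fold, with a median of -0.94. The methyl sterol oxidase *Msmo1* went from 131, 131 and 130.2 CPM to 39.2, 39.7 and 36.8 CPM (-1.74 ± 0.072, adjusted p = 1.32e-12), and no value of one group reaches the other. *Hmgcs1*, a synthase early in the pathway, went from 431, 439 and 448 CPM to 192, 193 and 176 CPM (-1.23 ± 0.084). *Insig1*, the sensor protein that holds SREBP back, changed by -1.34 ± 0.052 and *Srebf2*, which encodes SREBP2 itself, by -1.04 ± 0.071. Fatty acid synthesis genes were mixed: the desaturase *Scd2* fell (-1.18 ± 0.083) while fatty acid synthase *Fasn* rose (0.46 ± 0.080), and the list had 2 rises and 6 falls in 10 genes. The second rise, of *Acaca* (0.18 ± 0.073, adjusted p = 0.0439), was lost when any 1 of the 6 libraries was left out. *Hmgcs1* is shown because its promoter holds a TCACNCCAC match, the sterol response letters searched here, on chr13:119690101-119690350 (plus strand, GRCm38.p6, RefSeq), with the match in capitals.
Hmgcs1: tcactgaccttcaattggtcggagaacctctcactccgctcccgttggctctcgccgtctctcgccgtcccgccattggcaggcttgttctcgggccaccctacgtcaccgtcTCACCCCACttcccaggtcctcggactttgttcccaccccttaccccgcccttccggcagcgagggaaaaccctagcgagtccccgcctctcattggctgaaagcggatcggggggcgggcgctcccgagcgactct
The list had 1 window with a match among 19 (5.26%), against 1.24% of all windows. The 19 windows came from 16 of the 24 genes.

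The main feedback inhibitor of LIF signalling and several target genes of STAT3 fell. *Socs3*, the inhibitor that STAT3 induces, went from 166, 171 and 163 CPM to 22.4, 30.1 and 26.1 CPM (-2.63 ± 0.095, adjusted p = 1.99e-13). *Bcl3*, an IκB family protein, went from 77.1, 76.3 and 69.0 CPM to 7.37, 10.5 and 9.19 CPM (-2.92 ± 0.13, adjusted p = 3.24e-12). In both genes the 12 h values lie far under every 0 h value. The AP-1 subunit gene *Junb* and *Ier3* also fell past 2-fold (-1.77 ± 0.13 and -2.30 ± 0.096). The receptor genes were not lower: *Lifr* rose (0.40 ± 0.081) and *Il6st* had a change of 0.12 ± 0.052 that did not pass the test. Over the 15 listed genes 7 fell, 5 of them past 2-fold, and 3 rose, against 26.1% and 25.7% of all tested genes.

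Immediate early genes, which cells switch on within minutes of a stimulus, were high at 0 h and low at 12 h. *Egr1*, a zinc finger factor, read 211, 218 and 209 CPM and then 14.5, 17.3 and 14.9 CPM (-3.69 ± 0.088, adjusted p = 1.66e-15). *Fos* read 109, 99.0 and 101 CPM and then 6.83, 6.70 and 8.29 CPM (-3.65 ± 0.11, adjusted p = 2.04e-14), and *Fosb* 20.7, 24.7 and 26.0 CPM and then 2.78, 2.41 and 2.28 CPM (-2.83 ± 0.14). The ranges are far apart for all 3. Of 19 tested members 13 fell, 8 past 2-fold, and 1 rose, namely *Srf* (0.50 ± 0.11), which encodes the serum response factor. Without *Nanog* KO replicate 2 at 12 h 2 rose. Targets of SRF and YAP fell with them in 14 of 18 genes, led by the smooth muscle genes *Tagln* (-1.67 ± 0.055) and *Acta2* (-1.42 ± 0.076). Fibroblasts express both genes as well. The summed fibroblast markers given above moved the same way, and their part in this fall was not tested.

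Feedback genes that ERK is known to induce moved up. Of 13 listed genes 9 rose and 0 fell, with a median of 0.25. The ERK phosphatases *Dusp4* and *Dusp6* rose most. *Dusp6* went from 59.2, 59.3 and 58.4 CPM to 140.5, 144 and 144 CPM (1.26 ± 0.043, adjusted p = 9.54e-14), with no overlap, and *Dusp4* changed by 1.44 ± 0.075. *Spry4*, an inhibitor of receptor signalling, rose by 1.10 ± 0.059, whereas *Spry2* had 101 and 103 CPM and did not pass the test.

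Nodal target genes fell. Nodal signals through SMAD2 and SMAD3, with *Tdgf1* (Cripto) as its co-receptor and the Lefty proteins as its inhibitors. *Lefty2* went from 496, 500.4 and 499 CPM to 128, 144 and 129 CPM (-1.89 ± 0.090, adjusted p = 9.34e-12), and *Lefty1* changed by -1.79 ± 0.13. *Tdgf1* went from 902, 909.7 and 916 CPM to 265, 292 and 283 CPM (-1.70 ± 0.050, adjusted p = 1.42e-14). For these 3 genes the 12 h values lie under every 0 h value. The ligand gene itself, *Nodal*, read 105, 99.9 and 110.3 CPM and 101, 96.9 and 94.6 CPM, with a change of -0.11 ± 0.061 that did not pass the test, and *Foxh1*, the DNA-binding partner of the SMADs, had a change of -0.023 ± 0.060 that did not pass it. In all, 8 of 13 fell and 0 rose.

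Targets of beta-catenin split. *Axin2*, the common feedback target, rose from 14.1, 15.0 and 15.4 CPM to 27.2, 24.7 and 29.1 CPM (0.82 ± 0.075, adjusted p = 5.94e-08) and *Lef1*, a partner of beta-catenin on DNA, rose by 1.20 ± 0.095. *Cdx1* fell from 11.2, 11.8 and 11.1 CPM to 3.22, 2.93 and 4.31 CPM (-1.48 ± 0.20, adjusted p = 9.58e-06) and *Sp5* changed by -1.25 ± 0.19. Of 18 genes 7 rose and 4 fell, not far from the shares of all tested genes. Among FGF ligands, *Fgf4*, the ligand of the early epiblast, rose from 36.6, 35.2 and 36.8 CPM to 93.8, 93.2 and 93.2 CPM (1.34 ± 0.080, adjusted p = 2.26e-10), while *Fgf10* fell (-1.52 ± 0.14). The low genes *Fgf5* and *Fgf3* rose by 1.57 ± 0.19 and 1.20 ± 0.16. In the Notch pathway the ligand *Dll1* and the glycosyltransferase *Lfng*, which modifies Notch receptors, rose by 1.39 ± 0.10 and 1.12 ± 0.16, and *Hes1*, the usual target, had 17.6 and 18.6 CPM and did not pass the test. The receptor genes *Notch3* and *Notch4* fell (-0.43 ± 0.097 and -0.78 ± 0.12). In all 5 of 14 Notch genes rose and 2 fell, against 25.7% and 26.1% of all tested genes.

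Where a list had no member called in one direction, as for the hypoxia, sterol, ERK, Nodal, primitive endoderm, MYC and fibroblast lists, edgeR and DESeq2 called none in that direction either. At an unadjusted p under 0.05 limma had 1 such gene, in the Nodal list, and 0 in the others.

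**Figure D2:**
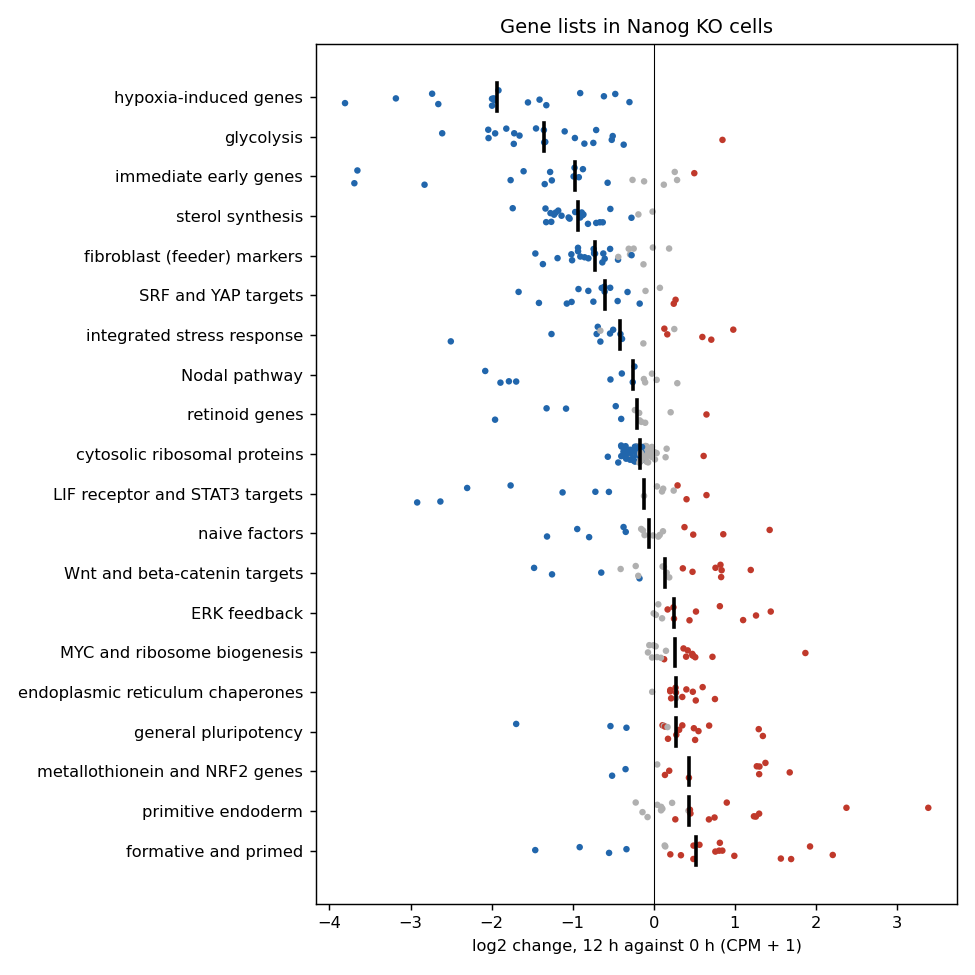
Change in *Nanog* KO cells (log2, 12 h against 0 h, horizontal axis) for each gene of 20 lists (points, red called higher, blue called lower, grey not called), with the median of each list as a black bar. Hypoxia genes have a median of -1.94 and glycolysis genes of -1.35, while the formative list, at 0.53, and the primitive endoderm list, at 0.44, lie to the right of 0.

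The naïve factors moved in both directions. Of 16 listed factors 4 rose, 5 fell and 7 did not pass the test, with a median of -0.062. These shares are near the 25.7% and 26.1% of all tested genes that rose and fell. *Klf2* went from 186, 190.5 and 176 CPM to 107, 98.5 and 110.4 CPM (-0.80 ± 0.091, adjusted p = 9.91e-07), and *Prdm14*, the repressor of DNA methyltransferase genes, fell from 6.04, 8.97 and 7.44 CPM to 2.44, 2.77 and 1.95 CPM (-1.32 ± 0.14, adjusted p = 6.24e-07). *Klf5* fell as well (-0.94 ± 0.14). In the other direction, *Nr0b1* (Dax1) rose from 43.9, 41.0 and 42.1 CPM to 112, 117 and 118 CPM (1.43 ± 0.085, adjusted p = 2.33e-10) and *Esrrb* by 0.38 ± 0.054. The well-known naïve markers *Zfp42* (Rex1) and *Tfcp2l1* had changes of -0.13 ± 0.056 and -0.16 ± 0.085 that did not pass the test (adjusted p = 0.051 and 0.134). Both passed it with only the 2 compared groups in the model (adjusted p = 0.00188 and 0.00227). The small fall of *Zfp42* lay at the threshold and passed it under 12 alternatives in all, among them DESeq2 and median-ratio scaling (adjusted p = 0.0346 and 0.0463). Among general pluripotency genes 12 of 17 rose and 3 fell. *Pou5f1* rose by 0.28 ± 0.085 (adjusted p = 0.011), *Sox2* by 0.11 ± 0.041 (adjusted p = 0.034) and *Foxd3* by 1.29 ± 0.16. The small change of *Sox2* did not pass the test without *Nanog* KO replicate 1 or 3 at 0 h or any single 12 h replicate (adjusted p of 0.0664 to 0.1).

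Many formative genes had begun to rise, in 14 of 20 members, while 4 fell, against 25.7% and 26.1% of all tested genes. The median was 0.53, and the lowest change in the list was -1.46. The claudin *Cldn6*, given below among the adhesion genes, was among the 4 that fell, whereas the members named next all rose. *Pou3f1* (Oct6, ENSMUSG00000090125, chr4:124656807-124660655), a POU factor of the formative epiblast, read 8.28, 9.50 and 8.01 CPM at 0 h and 38.9, 42.7 and 48.5 CPM at 12 h. The lowest 12 h library is far above the highest 0 h library, and the log2 change was 2.21 ± 0.14 (SE, adjusted p = 3.76e-10). *Dnmt3a*, a de novo DNA methyltransferase, rose from 142, 138 and 141 CPM to 513, 544 and 553 CPM (1.93 ± 0.054, adjusted p = 9.2e-15), and *Dnmt3b* by 0.76 ± 0.076. *Otx2*, a homeodomain factor that acts with *Pou5f1* in the formative state, moved less, from 45.9, 44.5 and 43.1 CPM to 57.9, 55.6 and 55.5 CPM (0.33 ± 0.085, adjusted p = 0.00297). *Sall2*, a zinc finger factor, rose from 5.31, 5.89 and 5.43 CPM to 20.1, 20.1 and 20.3 CPM (1.69 ± 0.077, adjusted p = 5.4e-12). Among other DNA methylation genes, *Tet1*, which oxidises methylcytosine, rose (0.73 ± 0.084) and *Dnmt3l*, the cofactor of the de novo enzymes, had a change of -0.11 ± 0.066 that did not pass the test. Of 13 germline genes that DNA methylation is known to silence, 1 rose and 4 fell, the latter near the 26.1% of all tested genes. The single rise was lost without replicate 2 at 0 h or at 12 h, and quantile scaling gave 3 rises.

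Of the primitive endoderm list, 11 of 20 tested genes rose and 0 fell, against 25.7% and 26.1% of all tested genes. The members that moved most make the endocytic receptor of that epithelium. *Cubn* (cubilin, ENSMUSG00000026726, chr2:13276338-13491813), a large peripheral receptor, read 10.7, 10.1 and 12.3 CPM at 0 h and 126, 122 and 125 CPM at 12 h. The 12 h libraries agree closely with each other and stand 11.3-fold over the 0 h mean, a log2 change of 3.38 ± 0.23 (SE, adjusted p = 1.25e-09). Its partner *Lrp2* (megalin) went from 57.9, 59.0 and 70.6 CPM to 336, 323 and 323 CPM (2.38 ± 0.074, adjusted p = 2.49e-14). *Amn* (amnionless), which anchors cubilin, rose from 5.05, 4.35 and 4.29 CPM to 12.3, 11.3 and 13.3 CPM (1.26 ± 0.17, adjusted p = 6.55e-06), and *Dab2*, the adaptor that links these receptors to clathrin, by 1.30 ± 0.077. None of these groups overlap. *Clic6*, an intracellular chloride channel protein, rose by 1.23 ± 0.17, and the basement membrane genes *Lama1* and *Col4a2* by 0.68 ± 0.086 and 0.45 ± 0.076. Among the specifying factors, *Gata4* read 25.0, 29.9 and 23.8 CPM and 27.8, 32.9 and 31.6 CPM, *Foxa2* had a change of 0.43 ± 0.18 and *Sox7* of -0.22 ± 0.11, and none of the 3 passed the test. With only the 2 compared groups in the model all 3 passed it (adjusted p = 0.0397, 0.0192 and 0.0273), *Gata4* and *Foxa2* as higher and *Sox7* as lower. *Foxa2* also passed without *Nanog* KO replicate 2 at 0 h (adjusted p = 0.0269), without control replicate 2 or 3 at 12 h (adjusted p = 0.00788 and 0.0382) and with robust moderation (adjusted p = 0.0497). *Gata6* and *Sox17* had 43.2 and 12.1 CPM at 12 h, against 40.2 and 11.3 CPM at 0 h, and did not pass the test.

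Other lineage lists were mixed, beside the 25.7% and 26.1% of all tested genes that rose and fell. Of neural progenitor genes 7 rose and 2 fell in 15, with *Tubb3*, a neuronal tubulin, at 1.20 ± 0.077 and *Nes* (nestin) at -1.13 ± 0.087. *Sox8* was low, at 0.104, 0.159 and 0.306 CPM and then 1.32, 1.05 and 1.54 CPM (0.95 ± 0.17, adjusted p = 0.000148). In the streak and mesoderm list 3 rose and 2 fell of 15. *Kdr*, a VEGF receptor, rose by 1.41 ± 0.13, *Eomes* changed by -0.84 ± 0.12, and *T* (brachyury), *Mef2c* and *Tbx2* stood under 2 CPM in both groups and did not pass the test. Several simple keratins fell: *Krt19* went from 226, 225 and 213 CPM to 74.0, 73.4 and 74.6 CPM (-1.57 ± 0.062, adjusted p = 6.98e-13), and *Krt18* and *Krt8* changed by -0.39 ± 0.068 and -0.23 ± 0.067. *Vim* (vimentin), which fibroblasts also express, changed by -1.33 ± 0.052. Among adhesion genes the claudins *Cldn4*, *Cldn6* and *Cldn7* fell (-0.76, -0.91 and -0.79).

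Genes of MYC and of ribosome biogenesis rose. *Myc* read 39.4, 38.0 and 39.7 CPM at 0 h and 138, 145 and 153 CPM at 12 h (1.87 ± 0.059, adjusted p = 3.3e-14). Of the 18 listed genes 10 rose and 0 fell, *Srm* (spermidine synthase) by 0.72 ± 0.071 and the nucleolar *Nop56* by 0.40 ± 0.040. Cytosolic ribosomal protein genes went the other way by small steps, with 36 of 76 lower, 1 higher and a median of -0.17, and nuclear genes of the respiratory chain had 37 of 78 lower and a median of -0.18. Genes of the mitochondrial genome rose in 7 of 13 cases, but their summed level was uneven at 0 h, at 14183 to 18811 CPM, against 18672 to 19600.0 CPM at 12 h. Leaving out *Nanog* KO replicate 1 or 2 at 0 h or replicate 1 at 12 h left 3, 4 and 4 of these rises. Of the ribosomal protein genes 22 were lower without replicate 1 at 0 h, and with quantile scaling 16 were lower and 6 higher. In the cell cycle, *Ccne1* (cyclin E) and *Cdc6*, which loads the replicative helicase, rose (0.79 ± 0.043 and 0.73 ± 0.053), *Ccnd2* (cyclin D) fell (-1.24 ± 0.14), and the mitotic genes *Bub1* and *Top2a* fell (-0.73 ± 0.061 and -0.59 ± 0.059).

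Most antioxidant genes rose. *Nqo1*, a quinone reductase and standard target of NRF2, went from 31.1, 30.7 and 30.0 CPM to 108, 98.5 and 93.7 CPM (1.68 ± 0.078, adjusted p = 7.02e-12). *Hmox1* (heme oxygenase) went from 142, 134 and 133 CPM to 348, 328 and 314 CPM (1.27 ± 0.072, adjusted p = 1.29e-10), and the glutathione synthesis genes *Gclc* and *Gclm* rose by 1.38 ± 0.064 and 1.30 ± 0.12. The groups do not overlap in any of these. Of 11 genes 8 rose, and the 2 that fell were the metallothioneins *Mt1* (-0.51 ± 0.088) and *Mt2* (-0.35 ± 0.070). Chaperones of the endoplasmic reticulum rose in 11 of 13 cases, with *Hspa5* (BiP) from 457, 468 and 485 CPM to 788, 795 and 794 CPM (0.75 ± 0.044, adjusted p = 2.07e-10). Among heat shock chaperones the near-identical genes *Hspa1a* and *Hspa1b*, whose reads cannot be told apart with certainty, rose by 1.67 ± 0.20 and 1.71 ± 0.11, and the list had 6 rises and 2 falls in 13. The letters GAANNTTC, the core of the heat shock element, were in 9 of 15 promoter windows of that list (60.0%) and in 7.86% of all windows. These 15 windows, some of which overlap, came from 10 of the 13 genes, and 8 genes held a match. Integrated stress response genes were mixed, with 5 rises and 9 falls in 17, led by *Vldlr*, a lipoprotein receptor that ATF4 induces, at -2.50 ± 0.18. *Vldlr* is known to be induced by hypoxia as well. Of 15 p53 targets 8 rose and 4 fell, *Cdkn1a* (p21) among the falls at -0.43 ± 0.065. The falls of this list and the rises of the integrated stress response list are near the 26.1% and 25.7% of all tested genes.

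Outside the lists, the largest rise of all tested genes was that of *Enpp2*, which encodes the secreted lysophospholipase autotaxin. The gene (ENSMUSG00000022425, chr15:54838901-54952892) read 0.833, 1.06 and 0.613 CPM at 0 h and 31.9, 28.6 and 29.5 CPM at 12 h (4.08 ± 0.25, adjusted p = 3.84e-10). *Cd209c*, a C-type lectin, rose from 3.85, 3.40 and 4.11 CPM to 28.2, 28.7 and 27.7 CPM (2.61 ± 0.10, adjusted p = 7.1e-13). The carbonyl reductase *Cbr3* rose from 12.6, 10.7 and 9.98 CPM to 64.5, 57.0 and 62.5 CPM (2.37 ± 0.11, adjusted p = 5.88e-12). These groups lie several times apart, but these genes were chosen for a large change and a lack of overlap, so this adds no support. *Exoc3l*, related to an exocyst subunit, rose by 2.60 ± 0.16, *Tfec*, a helix-loop-helix factor of the MiT family, from 0.365, 0.159 and 0.306 CPM to 5.71, 3.93 and 6.10 CPM (2.28 ± 0.15), *Ccno* (cyclin O) by 2.04 ± 0.13, the cytochrome *Cyp2b23* by 1.95 ± 0.11 and the protease *Capn3* by 1.93 ± 0.10. Among the largest falls outside the lists, *Aire*, the autoimmune regulator, went from 92.3, 102 and 111 CPM to 13.7, 14.2 and 16.3 CPM (-2.70 ± 0.11, adjusted p = 6e-13), the NMDA receptor subunit *Grin1* changed by -2.77 ± 0.15 and the chemokine *Ccl2*, which fibroblasts can make, by -2.65 ± 0.17.

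**Figure D3:**
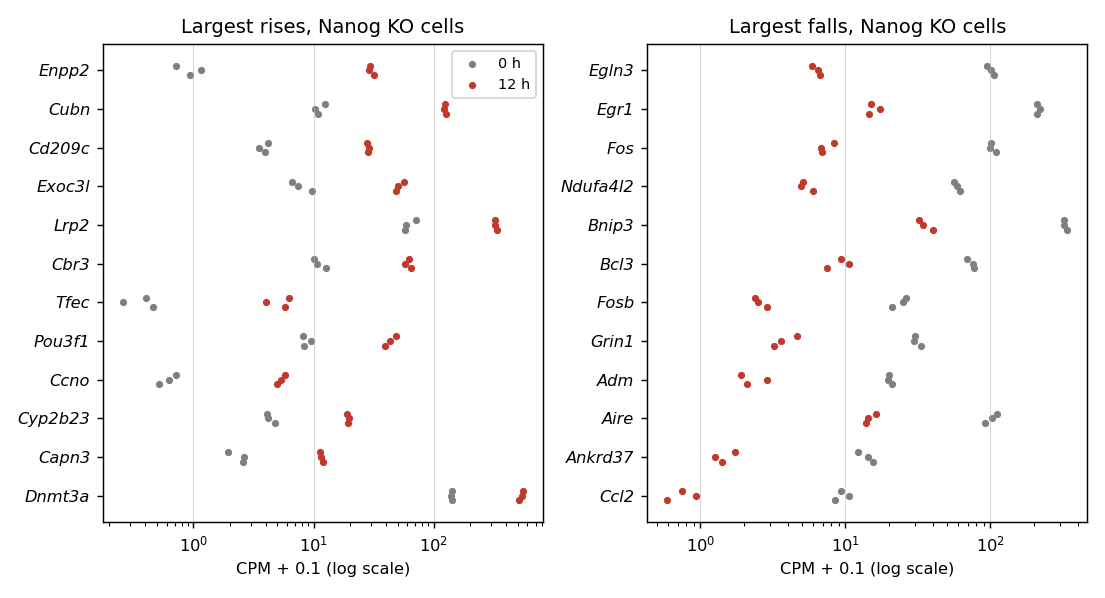
Level in CPM (horizontal axis, log scale, with 0.1 CPM added) in each *Nanog* KO library at 0 h (grey) and 12 h (red) for the same 12 rises and 12 falls as labelled in the plot of all genes. These genes were chosen for a lack of overlap between 0 h and 12 h, and *Enpp2* goes from 0.613 to 1.06 CPM at 0 h up to 28.6 to 31.9 CPM at 12 h.

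Many genes also moved in the control line between 0 and 12 h, where 3419 genes (22.6%) rose and 3699 (24.5%) fell. The control median was -1.27 for glycolysis, -1.47 for hypoxia genes and -0.97 for sterol synthesis. A change that differed between the lines was tested as the change in *Nanog* KO minus the change in control. The control had 2 libraries at 0 h, with a spread of 12 times counting noise between them. This is wider than in the *Nanog* KO libraries at 0 and 12 h, at 2.51 to 4.84 times, so the shared spread can understate the error of this difference. The 24 h libraries, at 7.1 to 14.9 times, enter the shared spread too. The difference was positive for 1502 genes (9.94%) and negative for 1451 (9.60%). With only the groups compared in the model it was positive for 1719 and negative for 1683. In glycolysis it was positive for 4 and negative for 5 genes, with a median of 0.080. It was positive for 12 of 20 formative genes and 11 of 20 primitive endoderm genes, and negative for 3 and 1. Of the 27 fibroblast markers it was negative for 8 and positive for 1. Their sum was 1848 to 2168 CPM at 0 h and 1591 to 1676 CPM at 12 h in control, against 1623 to 1832 CPM and 919.9 to 1138 CPM in *Nanog* KO, so these markers moved with the genotype as well, and their part in the other differences was not tested. For the immediate early genes it was positive in 10 of 19, for Wnt genes in 10 of 18 and for the Notch pathway in 7 of 14, with none negative in these 3 lists. In the negative direction limma had 1 immediate early, 2 Wnt and 0 Notch genes at an unadjusted p under 0.05, edgeR called 1 Wnt gene, and DESeq2 called 0 in the 3 lists. The germline genes had 8 negative and 0 positive of 13. In control, where 22.6% of all genes rose and 24.5% fell, 0 immediate early genes rose and 16 fell. There 3 Wnt genes rose and 12 fell, and 2 Notch genes rose and 6 fell. Germline genes had 10 rises and 2 falls in control, formative genes 5 and 9, and primitive endoderm genes 5 and 5. A positive difference can thus hold a fall in control as well as a rise in *Nanog* KO.

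The largest differences were taken among annotated genes that passed the test of the difference, also changed in *Nanog* KO and had at least 5 CPM there. They were of several kinds. *Pou3f1* stood at 14.1 and 20.3 CPM in the control libraries at 0 h and 21.2, 18.3 and 18.1 CPM at 12 h, values that overlap, so that its rise was 2.04 ± 0.21 larger in *Nanog* KO (adjusted p = 2.23e-06). *Cubn* stood at 0.482 and 0.359 CPM and 0.738, 2.53 and 1.63 CPM in the control, and *Enpp2* at 0.345 and 0.279 CPM and 1.48, 0.815 and 1.74 CPM. Both were near the bottom of the scale there, where adding 1 CPM shrinks a change most, and the differences were 2.55 ± 0.34 (adjusted p = 5.06e-05) and 3.27 ± 0.38 (adjusted p = 1.09e-05). With edgeR on the recovered reads neither difference passed the test (adjusted p = 0.214 and 0.127). *Sall2* fell in control, from 38.3 and 44.2 CPM to 30.9, 30.4 and 28.6 CPM, a difference of 2.14 ± 0.12 (adjusted p = 2.72e-09). The retinol-binding protein receptor *Stra6* fell in both lines, from 28.5 and 30.8 CPM to 2.58, 3.59 and 2.72 CPM in control and from 7.97, 7.11 and 8.10 CPM to 5.12, 6.44 and 4.47 CPM in *Nanog* KO, a difference of 2.49 ± 0.23. *Cited1*, a transcriptional coactivator, fell in control and rose in *Nanog* KO (2.02 ± 0.22), and so did *Fam84b* (2.13 ± 0.19). Without *Nanog* KO replicate 3 at 0 h, the rise of *Cited1* and the fall of *Stra6* in *Nanog* KO did not pass the test (adjusted p = 0.0738 and 0.0513), nor did the latter without replicate 3 at 12 h (adjusted p = 0.0831). On the negative side, *Aire* changed by -0.71 in control and -2.70 in *Nanog* KO (-1.997 ± 0.16), and *Otx2* went from 6.89 and 7.34 CPM to 28.5, 29.0 and 29.4 CPM in control, so that the difference was -1.55 ± 0.13 (adjusted p = 2.46e-07). *Dnmt3l*, whose change in *Nanog* KO did not pass the test, rose in control by 1.77 and differed by -1.88 ± 0.099. *Igfbp5*, which binds insulin-like growth factors, and the tetraspanin gene *Cd37* rose in control and fell in *Nanog* KO (-1.76 ± 0.24 and -1.57 ± 0.20). *Tfec*, given above, was at 0 in both control libraries at 0 h and at 0.227, 0.0815 and 0.109 CPM at 12 h. The difference was 2.09 ± 0.22 with 1 CPM added, but with edgeR on the recovered reads it was -0.59 and did not pass the test (adjusted p = 0.597). *Nlrc4*, an inflammasome sensor, rose more in control (-1.61 ± 0.15). *Khdc3*, *Ccdc184* and *Mef2b* fell in *Nanog* KO and did not pass the test in control (-1.47 ± 0.21, -1.64 ± 0.19 and -2.28 ± 0.52), and the difference of *Mef2b* did not pass it with edgeR (adjusted p = 0.0685).

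**Figure D4:**
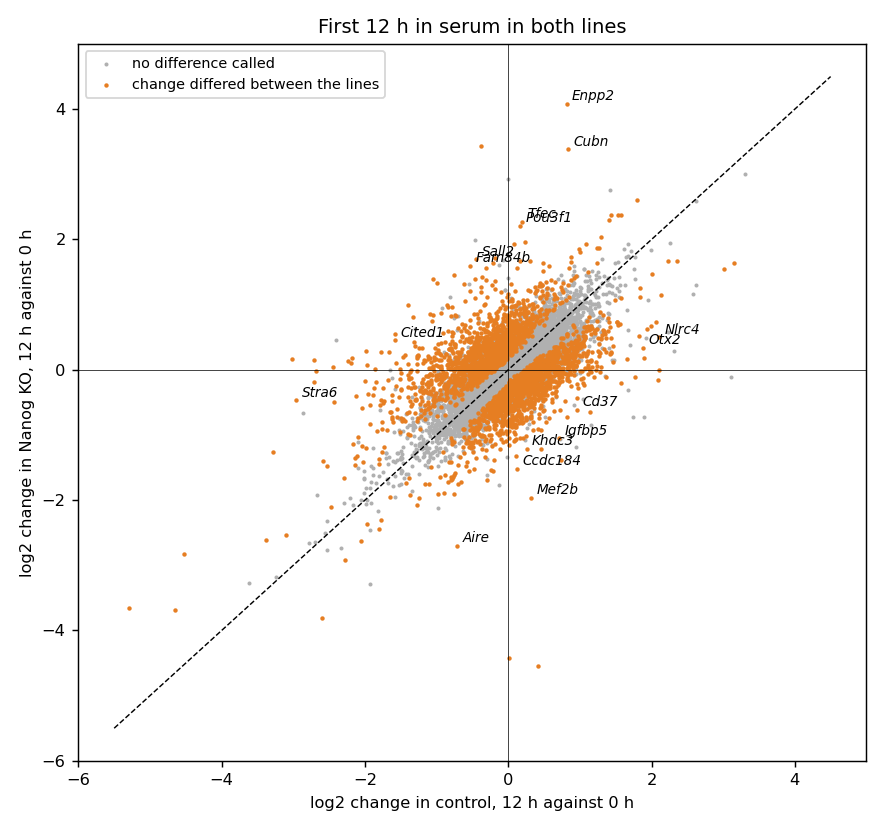
Log2 change from 0 to 12 h in control cells (horizontal axis) against that in *Nanog* KO cells (vertical axis), 1 point per tested gene, with the line of equal change dashed and genes whose change differed between the lines in orange. The labels mark the 8 largest differences per direction among annotated genes called for the difference and in *Nanog* KO, with at least 5 CPM there. *Enpp2* (3.27) and *Stra6* (2.49) lie above the line and *Mef2b* (-2.28) and *Aire* (-1.997) below it.

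In the second interval, 12 to 24 h, *Nanog* KO cells had 1984 genes higher (13.1%) and 2164 lower (14.3%). This comparison shares the 12 h libraries with the first, so the values are given side by side only. Sterol genes turned back: 22 of 24 rose between 12 and 24 h, with a median of 0.44 after -0.94 in the first 12 h. *Insig1* had 93.3 CPM at 24 h after 42.3 CPM at 12 h and 108 CPM at 0 h. Glycolysis genes did not return, with a summed level of 11023 to 11827 CPM at 24 h and a median of -0.013. Hypoxia genes had a median of 0.036, with 4 higher and 4 lower. Of the formative genes 15 of 20 rose in this interval, *Pou3f1* to 106 CPM and *Dnmt3a* to 818 CPM, and *Cubn* reached 235 CPM. Of the naïve factors 11 of 16 fell in this second step, after 5 in the first. The summed fibroblast markers stood at 453 to 593 CPM at 24 h.

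**Figure D5:**
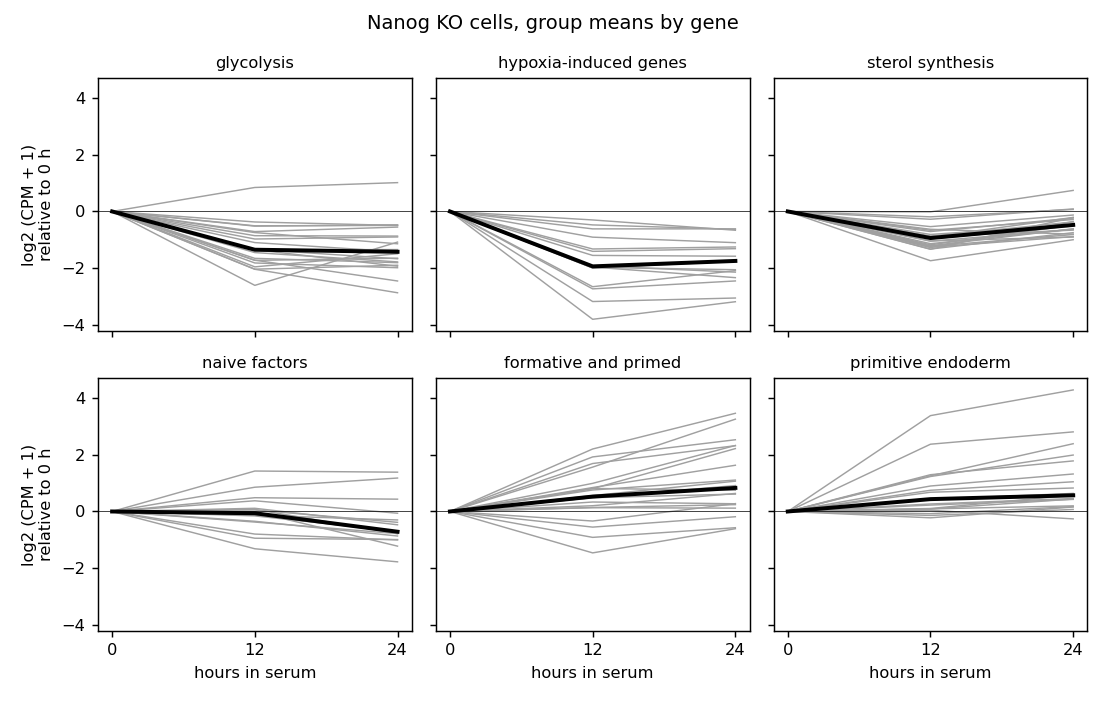
Log2 of CPM + 1 relative to the 0 h mean (vertical axis) at 0, 12 and 24 h (horizontal axis, hours) in *Nanog* KO cells for the genes of 6 lists, each grey line the group means of 1 gene and the black line the median of the list. The sterol lines fall and then rise, the glycolysis lines fall and stay low, and most naïve factors fall after 12 h, with medians of 0.44, -0.013 and -0.44 for the second step.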

How the data were processed

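Total RNA of ES cells was sequenced as single reads on an Illumina HiSeq. The authors trimmed adapters with cutadapt 1.3, quantified genes with RSEM (1.2.3 in the submitters' notes, another version in the methods) on GRCm38 (Ensembl 76) and scaled with edgeR's TMM. The deposited values are this TMM-scaled CPM, a signal in which 100% of values were whole multiples of 1 read to a tolerance of 0.001, so reads were recovered. The ComBat step the methods name was not seen in values of this form. Counting is not stated to use strand.

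The members and gene lists were chosen with earlier results of these data known. Tests used limma 3.58.1 in R 4.3.3 (trend, 1 coefficient per genotype and time, two-sided). Named genes are the 12 largest rises and falls with at least 5 CPM and no overlap between 0 h and 12 h, and the 8 largest genotype differences per direction. Up to 8 members per list and genes the study names were added. Predicted genes were left out of the largest changes and differences. Coordinates are GENCODE M21. Alternatives were other scalings, filters, pseudocounts and models, each library left out, and edgeR 4.0.16 and DESeq2 1.42.0 on recovered reads. The fits were also run on simulated counts with the same spread set for all genes and groups. That run cannot test the effect of the unequal spread among these groups. Some genes of the lists are not reported here by name.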

Additional observations from a re-analysis of the deposited data

Results flagged for a closer look

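The 17 genotype differences given above for single genes had an adjusted p under 0.05 in the test of the difference (limma). Except for *Dnmt3l*, the genes were chosen as the 8 largest per direction among those that passed it. Their passing was thus a condition of the choice and adds no support. The differences are listed as the log2 change in *Nanog* KO minus that in control from 0 to 12 h. Positive differences were 3.27 for *Enpp2*, 2.55 for *Cubn*, 2.49 for *Stra6*, 2.14 for *Sall2*, 2.13 for *Fam84b*, 2.09 for *Tfec*, 2.04 for *Pou3f1* and 2.02 for *Cited1*. The control levels of *Enpp2* and *Cubn* were under 3 CPM in every library at 0 and 12 h. Negative differences were -2.28 for *Mef2b*, -1.997 for *Aire*, -1.88 for *Dnmt3l*, -1.76 for *Igfbp5*, -1.64 for *Ccdc184*, -1.61 for *Nlrc4*, -1.57 for *Cd37*, -1.55 for *Otx2* and -1.47 for *Khdc3*. *Aire*, *Ccdc184*, *Mef2b* and *Otx2* stood higher in *Nanog* KO than in control at 0 h, with means of 102 against 15.3 CPM, 11.3 against 1.99 CPM, 10.7 against 1.80 CPM and 44.5 against 7.12 CPM. Starting levels were unequal on the positive side as well. By the values given above, *Sall2*, *Stra6* and *Pou3f1* stood lower in *Nanog* KO than in control at 0 h, and *Cubn* higher.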

How the results depend on the processing

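The counts of genes that rose or fell from 0 to 12 h stayed within 1.5 times 3887 and 3952 under every alternative run, and those of the genotype difference within 1.5 times 1502 and 1451. The counts past 2-fold did not. From 275 higher and 306 lower they moved to 172 and 203 with a mean of at least 5 CPM, which tests fewer genes, and to 734 and 534 with 0.1 CPM added in place of 1. With edgeR they were 781 and 561 and with DESeq2 757 and 554. No named change in *Nanog* KO cells reversed under any alternative. Of 155 named changes, 143 kept their call throughout. The others were those of *Acaca*, *Sox2*, *Krt8*, *Cited1* and *Stra6*, which lost it, and *Foxa2*, *Gata4*, *Sox7*, *Il6st*, *Dnmt3l*, *Zfp42* and *Tfcp2l1*, which gained it, under at least 1 alternative. Of 17 genotype differences, those of *Cubn* (1.82 with edgeR, 1.57 with DESeq2), *Enpp2* (3.03 with edgeR) and *Mef2b* (-2.06 and -2.29) lost their call, and that of *Tfec* was -0.59 with edgeR and 0.06 with DESeq2, neither called, with control libraries at 0 at 0 h. Replicate numbers did not pair the samples: deviations of same-numbered *Nanog* KO libraries at 0 and 12 h correlated at 0.017, 0.037 and -0.002. A replicate block gave 3786 higher and 3837 lower genes, and 1308 and 1297 for the genotype difference, and among named genes *Sox2* and *Acaca* lost and *Foxa2* gained its call. A count of 0 allows up to 3 reads, which at this depth is 0.131 to 0.244 CPM in the 6 libraries, by counting error alone.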

Other observations

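The other lists are given here beside the 25.7% and 26.1% of all tested genes that rose and fell in the first 12 h. Of 12 retinoid genes 5 fell and 1 rose: *Crabp1*, which binds retinoic acid in the cytoplasm, went from 19.7, 23.6 and 17.2 CPM to 2.59, 4.40 and 7.16 CPM (-1.96 ± 0.22) and *Stra8*, a retinoic acid response gene, changed by -1.32 ± 0.35, while the receptor *Rarg* rose (0.65 ± 0.053). Without *Nanog* KO replicate 3 at 0 h 3 retinoid genes fell. Of 19 lysosomal genes 9 fell and 2 rose (1 when *Nanog* KO replicate 2 or 3 at 0 h or 1 or 2 at 12 h was left out), with the cholesterol carrier *Npc2* at -0.78 ± 0.051. In threonine, glycine and one-carbon metabolism 3 of 12 rose and 5 fell, the rises near the share of all genes. Threonine dehydrogenase *Tdh*, which mouse ES cells are known to need, rose from 196, 196 and 193 CPM to 359, 342 and 343 CPM (0.83 ± 0.061), with no overlap. *Mat2a*, which makes S-adenosylmethionine, rose by 0.69 ± 0.042, and the mitochondrial *Shmt2* changed by -0.60 ± 0.052.

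Of 10 BMP feedback and Id genes 5 rose and 2 fell, with *Id2* at 0.69 ± 0.077 and *Id1* at -0.13 ± 0.11, which did not pass the test. The falls numbered 1 without *Nanog* KO replicate 1 or 2 at 0 h or replicate 2 at 12 h. Of 6 2-cell-like genes 3 rose, led by *Zscan4d* at 1.04 ± 0.25. This family has near-identical copies whose reads may be divided uncertainly. In the lists of G1 regulators and of replication and mitosis genes, 7 of 15 and 6 of 22 rose while 4 and 9 fell, and in the adhesion list 4 of 16 rose and 8 fell. The rises of the last 2 lists are near the share of all genes. Of 12 trophoblast genes and keratins 1 rose and 6 fell. The trophoblast factors *Cdx2* and *Elf5* stood at 4.48 and 0.362 CPM at 12 h and did not pass the test.

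The promoter windows were also searched on both strands for 3 other motifs. The STAT3 letters TTCNNNGAA were in 2 of 15 windows of the LIF list, against 8.3% of all windows. The ATF4 letters TGATGNAA were in 6 of 18 windows of the integrated stress response list, against 3.97% of all windows, and the AP-1 letters TGANTCA in 0 of 22 windows of the immediate early list, against 7.81%. The windows came from 13 of 15 genes of the LIF list, 15 of 17 of the integrated stress response list and 16 of 19 of the immediate early list. A gene can have several windows, which can overlap, so windows are not independent. As above, a match or its absence describes only the letters in these windows.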
